A study of Homo sapiens with 36 samples.

Results

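The 8 genes described here handle drugs and other foreign compounds at the cell membrane and in the endoplasmic reticulum. They comprised 6 efflux pumps of the ATP-binding cassette (ABC) family, namely ABCB1, ABCC1, ABCC2, ABCC3, ABCC4 and ABCG2, and 2 enzymes, namely the cytochrome P450 CYP3A5 and the glucuronosyltransferase UGT1A6. They were chosen by symbol, as 8 of the 60675 genes of the table, and all 8 matched an Ensembl gene identifier. RNA sequencing was performed in 2 established human cell lines, SW1783 from an astrocytoma and HT29 from a colorectal adenocarcinoma. In each line, batch A held a vehicle group (0.1% DMSO) and a group given wortmannin at 10 µM, a PI3K inhibitor used as positive control. Batch B held a second vehicle group (0.1% DMSO) and 3 groups given a water extract of Aconiti Lateralis Radix Preparata, the processed root of Aconitum carmichaeli Debeaux (ACD), at 500 (high), 100 (medium) or 20 µg/mL (low). All treatments lasted 24 h, and each of the 12 groups had 3 libraries. A single line stood for each organ, so the line and the organ cannot be told apart. Per the study, the lines were also grown in different media, SW1783 without carbon dioxide and HT29 with it, and plated at different densities. Differences between the lines cannot be told apart from these conditions.

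Cells remove foreign compounds in successive steps. Cytochrome P450 enzymes oxidize them, transferases such as the UGT enzymes attach a polar group such as glucuronic acid, and ABC pumps use ATP to carry the parent compound or its conjugate out of the cell. ABCB1 (P-glycoprotein) and ABCG2 (breast cancer resistance protein) are known from the blood-brain barrier and the gut lining, where they return many drugs to the blood or the gut lumen. The ABCC pumps, also called multidrug resistance-associated proteins, export glutathione, glucuronide and sulfate conjugates. Many of these genes are known targets of receptors for foreign compounds, among them the aryl hydrocarbon receptor (AHR), PXR and the antioxidant factor NRF2.

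The windows of 250 bases before the RefSeq transcription start (GRCh38.p14) were searched on both strands for GCGTG, the core of the AHR response element, and for TGACNNNGC, the core of the antioxidant response element. A window was at hand for 6 of the 8 genes, and none was for ABCC1 and ABCC3. Some genes have several starts, so the 6 genes had 12 windows, 5 of them for ABCG2. GCGTG was found in 6 of these 12 windows, beside 32.2% of all 35116 windows of this length. They belonged to ABCB1, ABCC4, ABCG2 and UGT1A6, and 3 of them were windows of ABCG2. The ABCG2 windows chr4:88158860-88159109 and chr4:88158910-88159159 overlap and hold the same matches, while chr4:88158640-88158889 holds other matches. TGACNNNGC was found in 2 of the 12 windows (ABCC4 and UGT1A6), beside 10.9% of all windows. With so few windows nothing is read from these shares. Windows are given for the 3 genes with an adjusted p under 0.05 and a change over 1.5-fold under ACD against vehicle. Each is written 5′ to 3′ on the strand of its gene, with a match to either motif in capitals. UGT1A6 had 2 starts, and of the first, which overlaps annotated exons, only the 30 bases around the match are given. Neither motif was found in the windows of ABCC2 and CYP3A5. These matches describe the letters of the windows and no binding was measured.
UGT1A6, first start, chr2:233691490-233691519, plus strand: gaacaggaactcGCGTGccagccaggtgtg
UGT1A6, second start, chr2:233692640-233692889, plus strand: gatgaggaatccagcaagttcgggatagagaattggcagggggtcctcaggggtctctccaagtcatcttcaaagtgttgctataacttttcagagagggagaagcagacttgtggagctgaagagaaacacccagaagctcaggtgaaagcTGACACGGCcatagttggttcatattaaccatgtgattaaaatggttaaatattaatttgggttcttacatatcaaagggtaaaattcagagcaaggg
ABCC2, chr10:99782390-99782639, plus strand: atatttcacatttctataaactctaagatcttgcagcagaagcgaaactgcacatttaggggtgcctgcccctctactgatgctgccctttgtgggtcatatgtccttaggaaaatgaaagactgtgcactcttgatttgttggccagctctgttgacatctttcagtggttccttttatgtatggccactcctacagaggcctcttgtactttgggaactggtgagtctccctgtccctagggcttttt
CYP3A5, chr7:99679997-99680246, minus strand: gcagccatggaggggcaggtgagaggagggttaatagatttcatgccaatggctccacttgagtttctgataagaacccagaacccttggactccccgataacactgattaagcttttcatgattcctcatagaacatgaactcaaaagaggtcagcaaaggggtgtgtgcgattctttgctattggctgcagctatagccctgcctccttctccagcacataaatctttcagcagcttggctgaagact

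The UGT1A genes of chromosome 2 join a first exon of their own to exons that they share, and the reads that fall in the shared exons do not tell these genes apart. The 60 bases around this junction (30 on each side) are shown for the main transcripts of 3 genes (GENCODE v44), with the own first exon in lower case and the shared second exon in capitals. Of the 2455 bases of the UGT1A6 transcript, 1479 bases (60.2%) were identical in those of UGT1A1 and UGT1A10, and the first exon accounted for the other 976. The second exon lies at chr2:233767034-233767165. Counts of UGT1A6 therefore rest in part on how the authors' software divided shared reads, and the gene is treated as uncertain below.
UGT1A6, first exon chr2:233692890-233693865: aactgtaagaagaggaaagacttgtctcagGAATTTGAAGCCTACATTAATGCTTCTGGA
UGT1A10, first exon chr2:233636448-233637377: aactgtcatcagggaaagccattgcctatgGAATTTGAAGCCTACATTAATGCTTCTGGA
UGT1A1, first exon chr2:233760270-233761151: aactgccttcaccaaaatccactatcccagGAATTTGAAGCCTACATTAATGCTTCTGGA

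Total counts ranged from 15941255 to 33866644 per library. The defining markers of the lines went with the labels: in CPM, which scales every library to an equal total, VIM was at 4076 to 4975 in SW1783 and at most at 0.133 in HT29, and EPCAM was at 452 to 585 in HT29 and at most at 0.202 in SW1783. Within the HT29 high group, replicate 2 stood apart, since the SD of log2 differences over genes was 0.533 and 0.507 against replicates 1 and 3, which differed from each other by 0.16. Mitochondrial ribosomal RNA took 11.27% to 12.52% of counts in the HT29 high group against 1.14% to 1.22% in its vehicle, and 5.76% to 8.05% in the SW1783 high and medium groups against 0.91% to 0.96%. Its part in the results below was not tested. The vehicle libraries of batch A differed less from those of batch B with their replicate number (1.47 to 1.71 chi-square per gene) than replicates of a vehicle group did (2.19 to 21). The labels do not say whether replicates came from separate cultures, so p-values measure the spread between these libraries, which may be technical.

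The levels of the 8 genes in untreated cells were compared first. Levels per length are read counts per kilobase of exon, scaled to the library total as in CPM, as mean ± SD over the 3 vehicle libraries of batch B. The length is that of all exons annotated for a gene in GENCODE v44, which can exceed the transcript in use. For UGT1A6 it was 5156 bases, against 2455 for its main transcript. The order of the genes within a line, and which neighbours overlap, therefore depend on this length. In SW1783 the order was ABCC1 (21.4 ± 0.105), ABCC3 (10.2 ± 0.135), ABCG2 (7.17 ± 0.629), ABCC4 (6.4 ± 0.0923), ABCB1 (4.3 ± 0.272), CYP3A5 (0.184 ± 0.0168), ABCC2 (0.143 ± 0.025) and UGT1A6 (0.0775 ± 0.0258). In HT29 the order was ABCC3 (47.4 ± 3.68), ABCG2 (13.7 ± 0.911), ABCC1 (11.4 ± 1.01), ABCC4 (10.5 ± 1.59), UGT1A6 (8.7 ± 0.357), CYP3A5 (8.17 ± 0.0429), ABCB1 (0.135 ± 0.0176) and ABCC2 (0.0974 ± 0.0387). In SW1783, ABCG2 and ABCC4 overlapped in their single libraries, as did CYP3A5 and ABCC2. In HT29, ABCC4 overlapped with ABCC1 above it and with UGT1A6 below it, and ABCB1 overlapped with ABCC2. The other neighbours in both orders did not overlap.

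**Figure D1:**
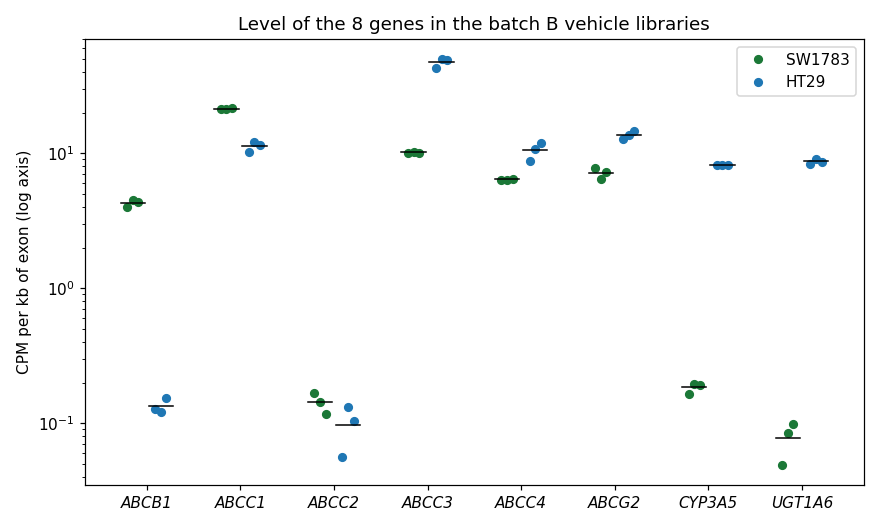
Level of each gene per library in the batch B vehicle groups of SW1783 and HT29 (CPM per kb of exon, log axis), with 3 points per line and a bar at their mean. ABCB1 sits far higher in SW1783, CYP3A5 and UGT1A6 sit far higher in HT29, and the points of ABCC2 overlap between the lines.

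Between the vehicle groups of the lines, 7 of the 8 genes were differentially expressed genes (DEGs), 2 higher and 5 lower in SW1783, where 50.7% of all genes tested were DEGs. A DEG had an adjusted p under 0.05 (Wald test of DESeq2, Benjamini-Hochberg) and a change over 1.5-fold. Values for this comparison are normalized read counts in a fit of these 6 libraries, as mean ± SD (n = 3), and log2 fold changes with their SE. ABCB1, the pump of broad range at the blood-brain barrier, had a mean of 608 ± 36.3 in SW1783 against 18.9 ± 2.46 in HT29 (log2 fold change 5.03 ± 0.21, adjusted p = 9.32e-120, DESeq2). ABCC1, which exports glutathione conjugates, was also higher in SW1783 (0.93 ± 0.06). UGT1A6, which conjugates small planar phenols, had a mean of 8.8 ± 2.94 in SW1783 against 974.5 ± 21.3 in HT29 (-6.79 ± 0.30, adjusted p = 8.19e-111, DESeq2). CYP3A5 was at 39.8 ± 3.56 and 1743 ± 26.9 (-5.45 ± 0.15). The differences were smaller for ABCC3 (-2.20 ± 0.06), ABCG2 (-0.92 ± 0.09) and ABCC4 (-0.70 ± 0.10). ABCC2, the pump of the apical membrane that secretes conjugates into bile and gut lumen, was low in both lines and the difference did not pass (0.55 ± 0.45, 95% interval -0.34 to 1.44, adjusted p = 0.299, DESeq2). These are bulk samples, in which fewer cells of a kind and less RNA per cell cannot be told apart.

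In HT29, the genes that were higher under ACD were the conjugating enzyme UGT1A6 and the pumps of conjugates ABCC2 and ABCC3. At the high dose 2 of the 8 genes were DEGs, both higher (UGT1A6 and ABCC2), beside 3.13% of all genes tested, and 3 genes had an adjusted p under 0.05 whatever the fold, beside 8.41%. At the medium dose UGT1A6 alone was a DEG, beside 0.786% of all genes, and 2 genes had an adjusted p under 0.05, beside 1.96%. At the low dose none of the 8 was a DEG by DESeq2, beside 0.279% of all genes (0.536% by adjusted p alone), with 1 of them at an unadjusted p under 0.05 and none called by edgeR. From here on, values are normalized counts from the fit of the 12 libraries of a line in batch B, or of the 6 libraries in batch A.

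UGT1A6 was at 1042, 1089 and 1050 in the HT29 vehicle libraries of batch B, at 1206, 1081 and 1194 at the low dose, at 1785, 1588 and 1671 at the medium dose and at 1809, 2260 and 1535 at the high dose. All libraries of the medium and high doses lay above all vehicle libraries, while the low dose overlapped with the vehicle. UGT1A6 rose by a log2 fold change of 0.66 ± 0.13 at the medium dose (adjusted p = 4.11e-05, DESeq2) and of 0.81 ± 0.13 at the high dose (adjusted p = 1.79e-08, DESeq2). At the low dose the change was 0.13 ± 0.13 (adjusted p = 0.956, DESeq2). The medium and high doses did not differ past the threshold (0.15 ± 0.13, 95% interval -0.10 to 0.40, adjusted p = 0.718, DESeq2).

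Because of the shared exons, the other UGT1A genes matched by symbol in the table were set beside UGT1A6. UGT1A3 and UGT1A5, which also share exons with UGT1A6, were not matched and enter neither the shares nor the sum. In the HT29 vehicle of batch B, UGT1A10 took 68.4 ± 0.58% of the counts of the 7 UGT1A genes and UGT1A6 took 8.96 ± 0.409% (n = 3). At the high dose the share of UGT1A6 was 10.7 ± 0.845% and at the medium dose 11.3 ± 0.521%. UGT1A10 changed by 0.57 ± 0.10 at the high dose (adjusted p = 3.61e-07, DESeq2), just under 1.5-fold, and UGT1A8 by 0.51 ± 0.13 (adjusted p = 0.00372, DESeq2). UGT1A1, the enzyme of bilirubin conjugation, changed by 0.26 ± 0.13 (adjusted p = 0.228, DESeq2). UGT1A6 was the only DEG among the 7 at the medium and high doses. When the 7 genes were summed to 1 feature, the sum changed by 0.56 at the high dose (adjusted p = 2.18e-07, DESeq2) and by 0.33 at the medium dose (adjusted p = 0.0246, DESeq2), both under 1.5-fold.

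**Figure D2:**
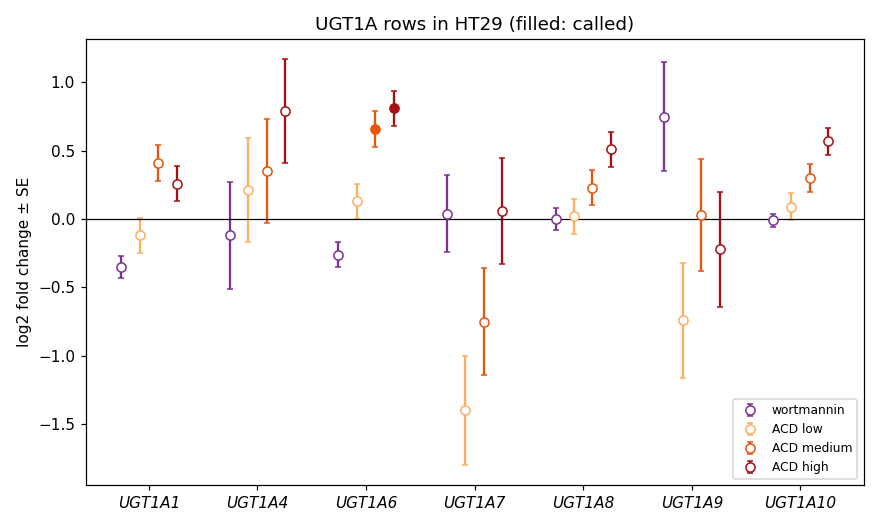
Log2 fold change against vehicle, with its SE, of the 7 UGT1A genes matched in the table, in HT29 under wortmannin and 3 doses of ACD. Filled points are DEGs. UGT1A6 holds the only filled points, at the medium and high doses, and UGT1A8 and UGT1A10 lie above 0 at the high dose.

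ABCC2 had few reads in HT29, with raw counts of 8 to 33 in the vehicle libraries of batch B. Its normalized counts were 10.6, 24.2 and 19.2 in the vehicle, 23.2, 17.9 and 22.7 at the low dose, 34.5, 30.8 and 31.8 at the medium dose and 53.5, 30.8 and 41.1 at the high dose. The libraries of the medium and high doses lay above those of the vehicle without overlap. ABCC2 rose at the high dose by 1.18 ± 0.34 (2.27-fold, adjusted p = 0.00964, DESeq2). The change at the medium dose was 0.79 ± 0.34 and did not pass (adjusted p = 0.323, DESeq2). The call at the high dose was lost without vehicle replicate 1 (0.96, adjusted p = 0.0762, DESeq2) and without high replicate 1 (0.98, adjusted p = 0.115, DESeq2). It was also lost in a fit of these 2 groups alone (1.20, adjusted p = 0.141, DESeq2).

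ABCC3, the basolateral pump for glucuronides and the most abundant of the 8 in HT29 per length, was at 10030, 11154 and 11097 in the vehicle. It was at 12377, 13360 and 12475 at the low dose, at 14889, 14026 and 14690 at the medium dose and at 17221, 11721 and 16957 at the high dose. All treated libraries lay above the vehicle libraries. The differences stayed under 1.5-fold, with 0.43 ± 0.13 at the medium dose (adjusted p = 0.0458, DESeq2) and 0.51 ± 0.13 at the high dose (adjusted p = 0.00262, DESeq2). High replicate 2, the library that stood apart, was the lowest of its group, and without it the change was 0.67 and ABCC3 was a DEG (adjusted p = 2.83e-27, DESeq2). The high-dose difference of ABCC3 had an adjusted p under 0.05 in 11 of 12 alternatives and lost it in a fit of the compared groups alone (0.101, DESeq2). The medium-dose difference of ABCC3 passed in only 2 of 12 alternatives, with an adjusted p from 2.81e-10 to 0.318 (DESeq2 and edgeR), and was lost in each of the 6 fits that left out a library. These 6 fits left out a vehicle or medium library and kept high replicate 2, which enters the spread estimate shared by the batch. The part of that library in the loss was not tested.

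The other 5 genes showed no change that passed in HT29 under ACD. ABCC1 was at 2166, 2488 and 2382 in the vehicle and at 2906, 1622 and 2893 at the high dose, where the library that stood apart was again the lowest (0.08 ± 0.18, 95% interval -0.27 to 0.43). ABCG2 changed by 0.06 ± 0.08 at the high dose, ABCC4, a pump of cyclic nucleotides and drugs, by -0.08 ± 0.10 and CYP3A5, which oxidizes many drugs, by 0.13 ± 0.06 (adjusted p = 0.199, DESeq2). CYP3A5 lay above the vehicle without overlap at all 3 doses, with 0.18 ± 0.06 at the medium and 0.19 ± 0.06 at the low dose. At the medium dose ABCG2 (0.19 ± 0.07) and ABCC1 (0.19 ± 0.18) also lay above it without overlap. The spread estimate of these fits is shared with the high group, and the part of its replicate 2 was not tested. ABCB1 was close to the limit of detection in HT29, with 4 to 32 raw counts per library of batch B, and its change of -0.60 ± 0.41 had a 95% interval of -1.41 to 0.20. The high-dose libraries of ABCB1 lay below the vehicle without overlap, yet this change did not pass (adjusted p = 0.453, DESeq2). Changes of ABCB1 of this size or smaller could thus be missed at this depth.

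**Figure D3:**
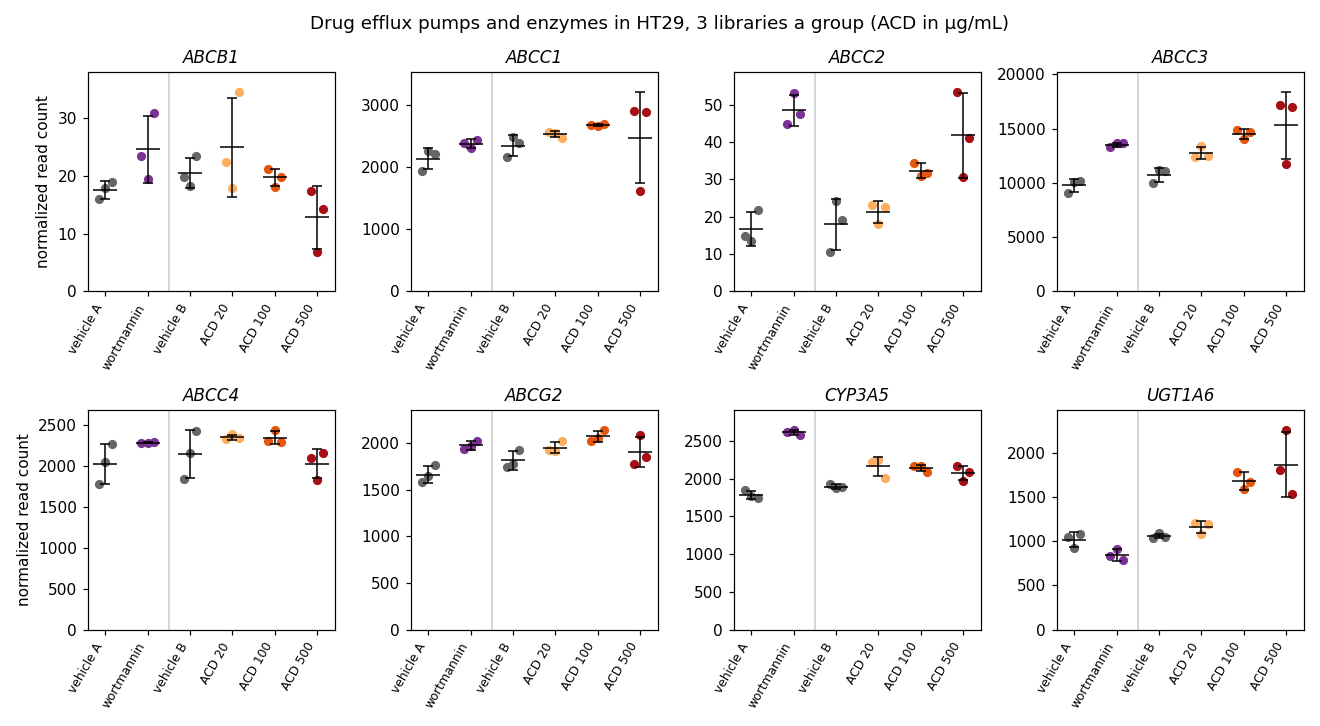
Normalized read count of the 8 genes in the 6 groups of HT29, with a point for each of 3 libraries and bars for mean ± SD, linear axes from 0, and a line between batches A and B, which were normalized separately. UGT1A6, ABCC2 and ABCC3 lie above vehicle B at ACD 100 and 500 µg/mL, and ABCC2, ABCC3 and CYP3A5 lie above vehicle A under wortmannin.

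Under wortmannin, HT29 showed differences in the pumps and in CYP3A5 that mostly stayed under 1.5-fold. None of the 8 genes was a DEG by DESeq2, beside 2.7% of all genes, while 7 of them had an unadjusted p under 0.05 and edgeR called 1. ABCB1 and ABCC2 had no adjusted p and could not be called by DESeq2. An adjusted p under 0.05 was reached by 4 genes, beside 20.7% of all genes, 3 higher and 1 lower. ABCC2 was at 14.7, 13.6 and 21.9 in vehicle A and at 44.8, 53.1 and 47.5 under wortmannin, without overlap. Its log2 fold change of 1.55 ± 0.36 (2.92-fold) had no adjusted p, since its mean count of 32.6 lay below the lowest mean (33.8) that DESeq2 kept. Without that filter its adjusted p was 0.000768 (DESeq2), and edgeR gave 0.00238. CYP3A5 was at 1846, 1777 and 1744 in vehicle A and at 2618, 2644 and 2584 under wortmannin (0.55 ± 0.06, 1.46-fold, adjusted p = 3.57e-18, DESeq2). The wortmannin libraries of CYP3A5 were tightly grouped above the vehicle. ABCC3 differed by 0.47 ± 0.06 (adjusted p = 1.46e-13, DESeq2) and ABCG2 by 0.25 ± 0.07 (adjusted p = 0.00301, DESeq2). UGT1A6 was lower, at 839, 918 and 788 against 1046, 928 and 1086 (-0.26 ± 0.09, adjusted p = 0.0322, DESeq2). Over 11 alternatives the log2 fold change of UGT1A6 ran from -0.33 to -0.21 and its adjusted p from 0.0203 to 0.228 (DESeq2 and edgeR), and it passed in 6 of them. It did not pass with the replicate block, without independent filtering, without vehicle replicate 3 and without wortmannin replicate 1 or 3. The pass of UGT1A6 under wortmannin therefore depends on the processing and on single libraries, and its difference from the response to ACD, which lies in another batch, was not tested.

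In SW1783, ACD lowered the counts of several pumps by less than 1.5-fold. At the high dose 1 of the 8 genes, CYP3A5, was a DEG and lower, beside 17.7% of all genes tested. An adjusted p under 0.05 was reached by 5 genes, all lower (ABCB1, ABCC1, ABCC4, ABCG2 and CYP3A5), beside 45% of all genes, so that the count lies near the background. At the medium dose none was a DEG by DESeq2 or edgeR, beside 3.79% of all genes, with 4 genes at an unadjusted p under 0.05. There, 3 genes had an adjusted p under 0.05, beside 28.9%. At the low dose none was a DEG by DESeq2 or edgeR, beside 0.119% of all genes (3.3% by adjusted p alone), with 2 genes at an unadjusted p under 0.05. Only 5 of the 8 had an adjusted p at the low dose. ABCC2, CYP3A5 and UGT1A6 lay below the lowest mean count (267) that DESeq2 kept there. UGT1A6 had no adjusted p at the medium dose either.

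ABCG2, a half-transporter that pairs to pump drugs and porphyrins, was at 878, 733 and 827 in the vehicle of batch B. It was at 738, 688 and 700 at the low dose, at 605, 579 and 573 at the medium dose and at 542, 542 and 553 at the high dose. The medium and high libraries lay below all vehicle libraries, and the low dose overlapped with the vehicle. The log2 fold change was -0.57 ± 0.08 at the high dose (adjusted p = 8.2e-13, DESeq2), just short of 1.5-fold, and -0.47 ± 0.08 at the medium dose (adjusted p = 1.35e-08, DESeq2). At the low dose it was -0.20 ± 0.08 (adjusted p = 0.152, DESeq2). Without vehicle replicate 2, the lowest of its group, ABCG2 was a DEG at the high dose (-0.64, adjusted p = 1.32e-13, DESeq2). The high and medium doses differed by -0.10 ± 0.08 (95% interval -0.26 to 0.06, adjusted p = 0.347, DESeq2).

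CYP3A5 fell by 0.76 ± 0.32 on the log2 scale at the high dose (adjusted p = 0.0398, DESeq2). Its counts were low, with 32.8, 38.5 and 38.5 in the vehicle, 47.1, 49.0 and 48.1 at the low dose, 51.0, 41.9 and 32.0 at the medium dose and 28.9, 20.7 and 15.9 at the high dose. The high libraries lay below all other libraries of the batch, and the low dose lay above the vehicle (0.39 ± 0.29, with no adjusted p). Of 12 alternatives CYP3A5 remained a DEG in 4, and the adjusted p ranged from 0.00653 to 0.209 (DESeq2 and edgeR). The call was lost in 5 of the 6 fits that left out a library, namely without vehicle replicate 1 (0.0544), 2 (0.116) or 3 (0.106) and without high replicate 2 (0.116) or 3 (0.209), given here as adjusted p of DESeq2. Against the medium dose, CYP3A5 was also lower (-0.94 ± 0.32, adjusted p = 0.0102, DESeq2), as 1 of 8 genes beside 9.79% of all genes. That call was lost without medium replicate 1 (0.0858) and without high replicate 3 (0.096), again as adjusted p of DESeq2.

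ABCC1, the most abundant of the 8 in SW1783, was at 3793, 3749 and 3810 in the vehicle, at 3777, 3620 and 3340 at the low dose, at 3426, 3300 and 3335 at the medium dose and at 3032, 2813 and 2914 at the high dose. The medium and high libraries were below the vehicle without overlap, and the high libraries were below the medium ones. ABCC1 differed from the vehicle by -0.17 ± 0.04 at the medium dose (adjusted p = 0.000318, DESeq2) and by -0.38 ± 0.04 at the high dose (adjusted p = 1.7e-17, DESeq2). The step from medium to high was -0.20 ± 0.04 (adjusted p = 1.8e-05, DESeq2). ABCB1 was at 522, 589 and 567 in the vehicle and at 416, 473 and 443 at the high dose (-0.33 ± 0.08, adjusted p = 0.000211, DESeq2). At the medium dose the change of ABCB1 was -0.20 ± 0.08 (adjusted p = 0.0504, DESeq2). ABCC4 was at 1118, 1098 and 1138 in the vehicle and at 861, 900.0 and 903 at the high dose (-0.33 ± 0.06, adjusted p = 1.46e-07, DESeq2), and at the medium dose the change was -0.05 ± 0.06 (adjusted p = 0.543, DESeq2).

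ABCC3 did not follow the order of the doses in SW1783. Its counts were 1965, 2005 and 1976 in the vehicle, at 2089, 2207 and 2294 at the low dose, at 2385, 2418 and 2679 at the medium dose and at 2073, 2055 and 2231 at the high dose. The medium libraries were the highest of the batch. ABCC3 differed from the vehicle by 0.33 ± 0.05 at the medium dose (adjusted p = 2.46e-09, DESeq2) and by 0.10 ± 0.05 at the high dose (adjusted p = 0.122, DESeq2), and the high dose lay below the medium dose by -0.24 ± 0.05 (adjusted p = 2.58e-05, DESeq2). ABCC2 was at 18.7 to 26.6 in the vehicle and at 15.3 to 21.5 at the high dose (-0.25 ± 0.39, 95% interval -1.01 to 0.51). UGT1A6 had 0 to 10 raw counts per library in SW1783, and its fitted changes (-1.48 ± 1.11 at the high dose, 95% interval -3.65 to 0.69) did not pass. Some of these libraries were at or below 3 counts, the limit that a count of 0 allows, so no direction is given for UGT1A6 in this line.

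**Figure D4:**
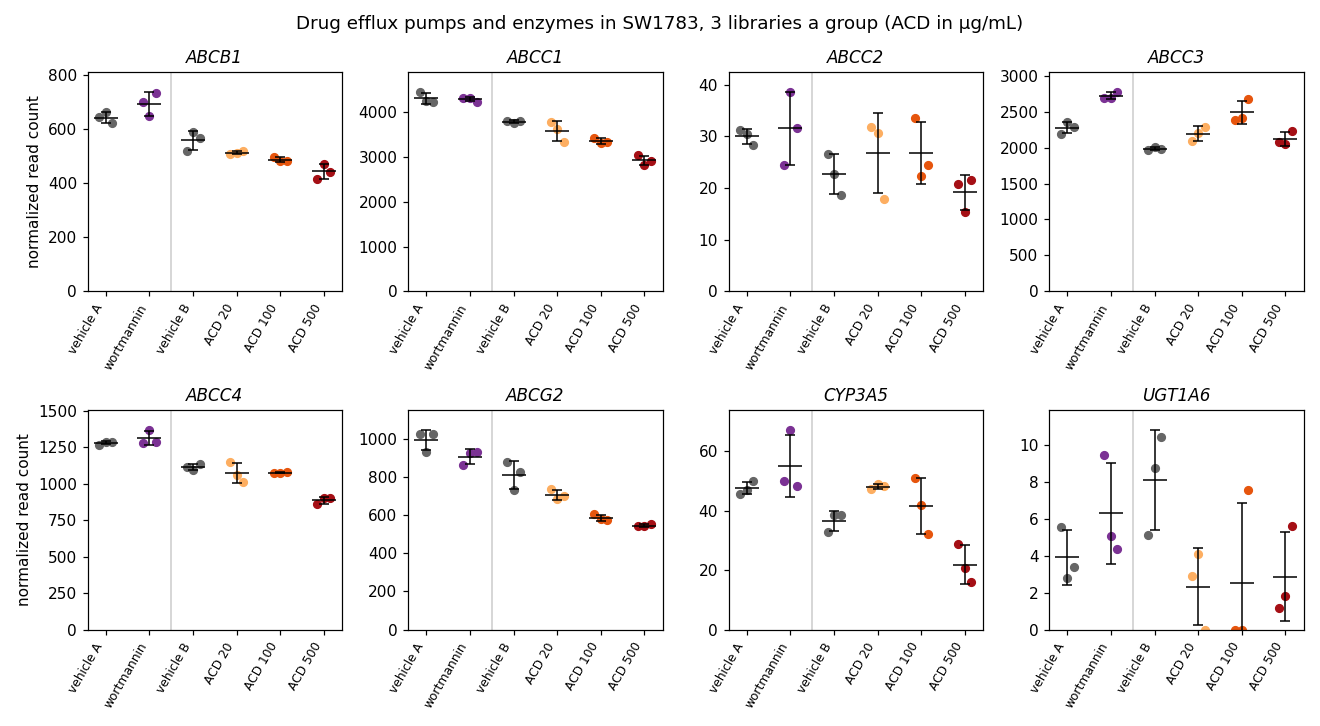
Normalized read count of the 8 genes in the 6 groups of SW1783, with a point for each of 3 libraries and bars for mean ± SD, linear axes from 0, and a line between batches A and B, which were normalized separately. ABCG2, ABCC1 and ABCB1 lie lower at ACD 100 and 500 µg/mL than in vehicle B, ABCC3 is highest at 100 µg/mL, and UGT1A6 stays at 0 to 10.4.

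Wortmannin gave 1 difference among the 8 genes in SW1783 that passed the adjusted p, and it was under 1.5-fold. None was a DEG by DESeq2 or edgeR, beside 2.67% of all genes, and UGT1A6 had no adjusted p. Among the 8, 1 gene had an unadjusted p under 0.05. That gene was ABCC3, at 2195, 2359 and 2284 in vehicle A and at 2697, 2689 and 2777 under wortmannin (0.25 ± 0.04, adjusted p = 2.55e-08, DESeq2), beside 31.7% of all genes with an adjusted p under 0.05. The wortmannin libraries of ABCC3 lay above the vehicle without overlap. ABCC1 changed by -0.01 ± 0.03 (95% interval -0.07 to 0.06) and ABCG2 by -0.13 ± 0.07 (adjusted p = 0.137, DESeq2). Between the vehicles of batches B and A no difference passed for the 8 genes by DESeq2 or edgeR, with none at an unadjusted p under 0.05 in either line, beside 0.00348% DEGs of all genes in SW1783 and 0% in HT29. The vehicle libraries of the 2 batches with the same replicate number deviated together from their group means (r over genes of 0.52 to 0.76 in HT29 and of 0.22 to 0.30 in SW1783). The sources used here do not say whether these are separate cultures or the same material, so the comparison cannot show that the batches did not differ.

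In HT29 the step from the medium to the high dose held no DEG among the 8 genes by DESeq2 or edgeR, beside 0.687% of all genes, and 1 of them had an unadjusted p under 0.05. In SW1783 the same step had 4 genes with an adjusted p under 0.05, all lower at the high dose (ABCC1, ABCC3, ABCC4 and CYP3A5), beside 39% of all genes. The HT29 share by adjusted p alone was 0 of 8 beside 1.67%.

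Whether the lines differed in their response was tested as an interaction, the log2 fold change in SW1783 minus that in HT29. At the high dose of ACD 4 of the 8 genes were DEGs of the interaction, all with the lower value in SW1783, beside 14.6% of all genes. An adjusted p under 0.05 was reached by 7 genes, beside 27.7%. ABCG2 differed by -0.68 ± 0.10 (adjusted p = 4.74e-11, DESeq2), CYP3A5 by -0.96 ± 0.24 (adjusted p = 0.000421, DESeq2) and ABCC2 by -1.47 ± 0.46 (adjusted p = 0.00653, DESeq2). UGT1A6 differed by -2.31 ± 0.59 (adjusted p = 0.000585, DESeq2), a value that rests on the 0 to 10 counts per library of SW1783. ABCC1 differed by -0.50 ± 0.19 and ABCC3 by -0.45 ± 0.15, both under 1.5-fold, and without HT29 high replicate 2 both were DEGs (-0.72 and -0.62). Over 17 alternatives the adjusted p of this interaction ran from 2.6e-14 to 0.0451 for ABCC3, from 2.42e-24 to 0.14 for ABCC1 and from 0.000775 to 0.118 for ABCC4 (DESeq2 and edgeR). ABCC1 passed in 5 of the 17 and ABCC4 in 4, so for these 2 pumps the difference between the lines rests on the processing and on single libraries. At the medium dose 2 genes were DEGs of the interaction, beside 3.31% of all genes and, by adjusted p alone, 10.3%. These were ABCG2 (-0.68 ± 0.10, adjusted p = 8.52e-11, DESeq2) and UGT1A6 (-2.29 ± 0.61, adjusted p = 0.00357, DESeq2). The UGT1A6 call was lost without SW1783 medium replicate 2 (-1.66, adjusted p = 0.0703, DESeq2) and with edgeR (-2.25, adjusted p = 0.0785). Without SW1783 medium replicate 3, the one library of its group with reads of UGT1A6, the fitted value was -6.10 (adjusted p = 0.00119, DESeq2). A fitted value against libraries at 0 depends on the model and is no bound. At the high dose the UGT1A6 interaction was -3.27 without SW1783 high replicate 3, and it passed in each of 17 alternatives. With the UGT1A genes summed it was -0.90 at the high dose and -0.64 at the medium dose. No size is therefore read from the UGT1A6 interaction at either dose.

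The interaction of ABCG2 at the high and medium doses was past both thresholds in each of 17 alternatives. At the low dose none of the 8 genes was a DEG of the interaction by DESeq2 or edgeR, beside 0.261% of all genes and 0.895% by adjusted p alone. There, 2 genes had an unadjusted p under 0.05, and ABCC2 had no adjusted p. For wortmannin none was a DEG of the interaction by DESeq2, beside 3.39%, with 5 genes at an unadjusted p under 0.05 and 1 called by edgeR. There, ABCG2 differed by -0.40 ± 0.09 (adjusted p = 0.000116, DESeq2) and ABCC3 by -0.23 ± 0.07 (adjusted p = 0.00726, DESeq2), the only 2 genes with an adjusted p under 0.05, beside 15.3% of all genes. ABCC2 differed by -1.51 ± 0.43 and had no adjusted p, and edgeR gave it 0.0057.

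**Figure D5:**
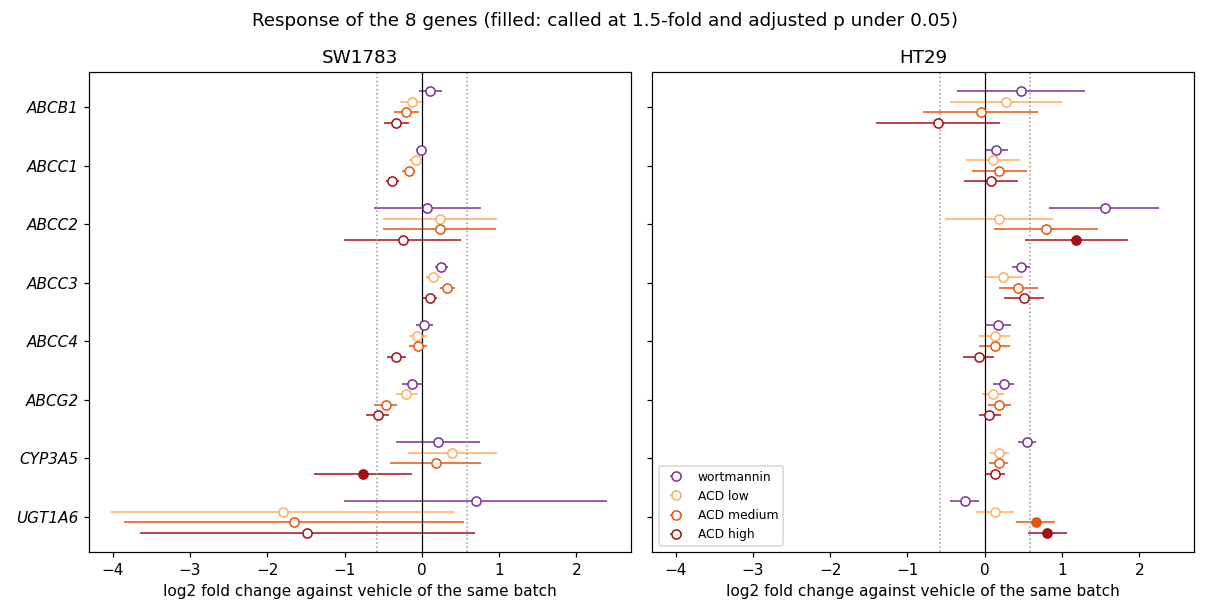
Log2 fold change of each gene against the vehicle of its own batch, with 95% intervals, for wortmannin and 3 doses of ACD in SW1783 and HT29, where dotted lines mark 1.5-fold and filled points are DEGs. In SW1783 the filled point is CYP3A5 at the high dose, and in HT29 they are ABCC2 at the high dose and UGT1A6 at the medium and high doses.

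Other genes of drug handling were counted in lists. The lists held 18 other ABC transporters, 26 cytochrome P450 genes and partners, 43 conjugating enzymes, 19 uptake transporters and 18 regulators. Their counts of DEGs stand beside the shares over all genes tested, which were 3.13% in HT29 and 17.7% in SW1783 at the high dose and 2.7% in HT29 under wortmannin. In HT29 at the high dose, 5 of 16 P450 genes tested were higher and none lower, with a median log2 fold change of 0.29 beside 0.01 over all genes tested. Of these 5, only CYP1A1 and CYP1B1 had a mean count of 100 or more and no overlap of groups. No common direction is therefore read from the count or the median. CYP1A1, a classical target gene of AHR, went from 6.89 ± 3.71 to 2384 ± 132 (n = 3, 8.34 ± 0.39, adjusted p = 2.01e-97, DESeq2), and CYP1B1 from 1153 ± 97.9 to 8114 ± 786 (2.82 ± 0.15). These 2 genes were also higher at the medium dose (8.21 ± 0.39 and 3.02 ± 0.15) and at the low dose (3.64 ± 0.40 and 1.34 ± 0.15). Of 14 regulators, TIPARP, an AHR target that represses its receptor, was the single one called, at 1.52 ± 0.09. Of 10 uptake transporters 2 were higher, among them SLC22A3, a cation transporter (1.41 ± 0.12). Of 12 other ABC transporters 1 was higher, ABCG1, a cholesterol exporter (0.76 ± 0.14). None of 28 other conjugating enzymes was called by DESeq2 or edgeR, with 10 at an unadjusted p under 0.05 and a median of 0.04. Under wortmannin 1 ABC transporter (ABCG1, 0.62 ± 0.19), 2 P450 genes and 2 uptake transporters were higher in HT29, with no DEG of these 3 lists lower.

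In SW1783 at the high dose the lists moved in both directions. Of 15 P450 genes tested 1 was higher and 4 lower, with a median of -0.77 beside -0.01 over all genes. CYP1A1 and CYP3A7, among the 4 lower, had mean counts of only 9.30 and 4.79. Others of the 15, such as CYP2C8 (1.89) and CYP2J2 (2.38), had still fewer, so no common direction is read from this median. CYP1B1 fell by 1.23 ± 0.04 and CYP2S1 by 0.77 ± 0.17 on the log2 scale, and CYP2R1, a vitamin D hydroxylase, rose by 0.82 ± 0.14. Of 28 conjugating enzymes 1 was higher and 7 lower, with a median of -0.37. Among these, NNMT, which methylates nicotinamide, fell by 0.75 ± 0.05 and the glutathione transferases GSTM2 and GSTM1 fell by 0.71 ± 0.13 and 0.63 ± 0.13, where near-identical GSTM sequences make the split of reads uncertain. Of 15 other ABC transporters 2 were higher and 1 lower, a share near the background of 17.7%, with ABCA1, a cholesterol exporter, at 2.50 ± 0.04 and ABCB9, a lysosomal peptide transporter, at -1.37 ± 0.16. Among the regulators, CEBPB was higher at 1.46 ± 0.16 and AHR at 0.72 ± 0.04, and AHRR, the AHR repressor, was lower at -0.98 ± 0.07. Of 11 uptake transporters 3 were higher and 1 lower (SLC22A4, -0.62 ± 0.12).

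The genes whose pattern was most like that of a called gene were sought over the 18 libraries of a line, which share their batches and treatments, by Pearson correlation of log2(normalized count + 1). For UGT1A6 in HT29 these were NAMPT (r = 0.955) and GCLM (r = 0.945). For ABCC2 in HT29 they were MCM10 (r = 0.928) and CAPRIN2 (r = 0.897), and for CYP3A5 in SW1783 they were VSTM4 (r = 0.905) and CHST10 (r = 0.900). These values describe likeness only.

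The genes lie on separate chromosomes except for ABCB1 and CYP3A5, both on chromosome 7 (GRCh38, GENCODE v44). ABCB1 (ENSG00000085563) spans chr7:87503017-87713323 and CYP3A5 (ENSG00000106258) chr7:99648194-99679996, both on the minus strand. ABCC1 (ENSG00000103222) spans chr16:15949138-16143257, ABCC2 (ENSG00000023839) chr10:99782640-99852594, ABCC3 (ENSG00000108846) chr17:50634777-50692253 and UGT1A6 (ENSG00000167165) chr2:233691607-233773300, all on the plus strand. ABCC4 (ENSG00000125257) spans chr13:95019835-95301475 and ABCG2 (ENSG00000118777) chr4:88090150-88231628, both on the minus strand. The counts used here rest on the annotation release that the study names, which is not GENCODE v44. The exons counted may therefore differ from those behind the positions and lengths given here.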

How the data were processed

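RNA-seq libraries of SW1783 and HT29 cells were prepared by the authors with a directional kit and sequenced as 100 bp pairs on an MGI instrument. Per the labels the reads were trimmed with Trim Galore 0.6.5 after FastQC 0.11.9, aligned to GRCh38 with STAR 2.7.3a and quantified with RSEM 1.3.3. The study's methods give other versions of 2 of these tools and write GRCh38 together with hg19. The deposited values are RSEM expected counts per gene, not normalized. The strand setting and the handling of reads with several positions are not given in the sources used here. Here the expected counts were rounded, since 8.84% were not whole. A count of 0 allows up to 3 counts, or 0.089 to 0.188 CPM, and covers counting error only.

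Treatments were set against the vehicle group of their batch with the Wald test of DESeq2 1.42.0 (R 4.3.3), two-sided, adjusted with Benjamini-Hochberg over all genes tested. DEGs had an adjusted p under 0.05 and a log2 change over 0.585. Fits held the 12 libraries of batch B, the 6 of batch A, or 24 and 12 for interactions. Alternatives were edgeR, TMM size factors, a filter of 10 counts in 3 libraries, fits of the compared groups alone, a replicate block and leaving out each library. Fits without independent filtering and with UGT1A genes summed were added after seeing the data. All 8 genes are named, and from each other list at most 3 DEGs per direction with a mean count of 100 or more and no overlap of groups. Scripts were tested on simulated data. The 8 genes and the lists were chosen with earlier results of these data known. UGT1A3, UGT1A5 and GSTT1 were not analysed here. A result of the regulator list is not reported here. The promoter windows are RefSeq's (GRCh38.p14).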

Additional observations from a re-analysis of the deposited data

Results flagged for a closer look

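The response to ACD differed between SW1783 and HT29 by a test of the difference itself (interaction, SW1783 minus HT29, DESeq2) for 4 genes at the high dose and 2 at the medium dose. On the log2 scale the high-dose differences were -1.47 for ABCC2, -0.68 for ABCG2, -0.96 for CYP3A5 and -2.31 for UGT1A6. The medium-dose differences were -0.68 for ABCG2 and -2.29 for UGT1A6. In the fit of both lines, the high-dose SE of CYP3A5 and UGT1A6 lay below those of SW1783 alone. So did the medium-dose SE of UGT1A6 (0.61 against 1.12). The adjusted p of these interactions may therefore be too low. The UGT1A6 values rest on 0 to 10 counts per library in SW1783. Over 17 alternatives the medium-dose value ran from -6.10, without SW1783 medium replicate 3, to -1.66, without SW1783 medium replicate 2, where the call was lost, and the high-dose value reached -3.27 without SW1783 high replicate 3. Groups of 3 libraries were not tested for outliers.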

How the results depend on the processing

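The counts of DEGs among the 8 genes were recomputed under each alternative, as were the log2 fold changes of the genes, none of whose calls changed sign. In SW1783 the high-dose count of 1 became 0 with the replicate block, without independent filtering and in a fit of the compared groups alone. In HT29 the high-dose count of 2 became 1 in a fit of the compared groups alone and 1 with the UGT1A genes summed, and the medium-dose count of 1 became 0 with the UGT1A genes summed. For wortmannin in HT29 the count of 0 became 1 (ABCC2) with TMM size factors, the low-count filter, edgeR or no independent filtering, since ABCC2 then had an adjusted p. The interaction of wortmannin went from 0 to 1 (ABCC2) with edgeR and without independent filtering, and that of the medium dose from 2 to 1 with edgeR. Without the fold threshold the counts were 5 for SW1783 high, 3 for SW1783 medium, 1 for SW1783 wortmannin, 4 for SW1783 high against medium, 2 for HT29 medium, 4 for HT29 wortmannin, 7 for the high-dose interaction and 2 for the wortmannin interaction. Leaving out a library gave counts from 0 to 1 for SW1783 high, for SW1783 high against medium and for HT29 wortmannin, from 1 to 3 for HT29 high, from 1 to 2 for the medium-dose interaction and from 4 to 6 for the high-dose interaction, where ABCC1 and ABCC3 joined without HT29 high replicate 2. Where no cause is named, the cause was not tested.

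No steady pairing of treated and vehicle libraries by replicate number was seen. The correlations of deviations from the group means ran from -0.46 to 0.33 over the 8 treatment comparisons. With 3 libraries a group, these correlations cannot show that replicates were handled separately. The replicate block entered as an alternative only. Apart from the 0 in SW1783 at the high dose, the replicate block changed no count of DEGs among the 8 genes. By normalized counts, not divided by length, 7 of 16 ranks of the genes within the vehicle groups moved. Depth limits ABCC2 in both lines, ABCB1 in HT29, and CYP3A5 and UGT1A6 in SW1783.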
